A study of Mus musculus with 4 samples.

Results

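The 8 genes described here, *Ucp1*, *Cidea*, *Elovl3*, *Plin1*, *Adipoq*, *Cidec*, *Prdm16* and *Lipe*, are genes of brown adipocytes, read in RNA-seq of mouse hearts at P7 as a check for fat that adheres to the dissected heart. They were selected by name from a table of 24454 genes, with their counts in these same libraries already known, so their levels and fold changes are given as a description and without a test. The libraries are named WH7 and WH8 for Ctrl and WH9 and WH10 for miR-128OE. The miR-128OE hearts came from double transgenic mice with α-MHC-tTA, in which the α-MHC promoter drives the tetracycline transactivator in CMs, together with miR-128TetRE, in which the transactivator switches on miR-128 unless doxycycline is given. The labels give neither the doxycycline state of the P7 mice nor how hearts were trimmed of adherent tissue. Ctrl mice carried miR-128TetRE without the transactivator, and both groups had a C57BL/6 background. The design has 2 libraries per condition, and the labels do not say whether the libraries of a condition came from separate hearts, so p-values measure the spread between these libraries, which may be technical.

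Brown adipocytes burn fat to make heat. Lipids are stored in many small droplets, enzymes on the droplet surface release fatty acids, and mitochondria rich in uncoupling protein turn the energy of oxidation into heat instead of ATP. In young mice, brown adipose tissue lies close to the great vessels and in the mediastinum, so it can be carried along with a heart. *Ucp1* encodes the uncoupling protein, *Cidea* a droplet protein typical of brown fat, and *Elovl3* an enzyme that elongates very long fatty acids in brown fat. *Prdm16* is a transcriptional regulator of brown fat identity that also acts in the heart and other tissues. *Plin1* and *Cidec* encode droplet coat and fusion proteins of adipocytes, *Lipe* the hormone-sensitive lipase, and *Adipoq* the hormone adiponectin.

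The library totals were 8096870 to 14359838 counts, and a level of 3 counts, used as the detection floor, was 0.209 to 0.371 CPM, the count of a gene as a share of the library total on a common scale. CM genes were abundant in all libraries. Their summed level over 8 markers such as *Myh6* was 48840 CPM in WH7, 51040 in WH8, 62580 in WH9 and 62190 in WH10, and thus higher in miR-128OE. The conditions also differed in sex, since *Xist* had 14543 and 11339 counts in the Ctrl libraries against 94 and 132 in miR-128OE, and the Y-linked gene *Ddx3y* had 13 and 7 against 1442 and 1768. For every comparison between conditions, genotype and sex cannot be told apart. Reads of the miR-128 genes were too few to check the labels, since *Mir128-2* had 2 counts in WH9, 10 in WH10 and 0 in both Ctrl libraries, and *Mir128-1* was at 0 throughout. Library WH8 stood apart in markers of atrial muscle, whose summed level over 8 genes was 844 CPM, against 6353 CPM in WH7, 2210 CPM in WH9 and 2845 CPM in WH10.

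The sequences that bear on these genes are the overexpressed miRNA and its seed matches among them, and the start of the gene that varied most. Mature miR-128 (RefSeq, GRCm38.p6, chr1:128202404-128202424, plus strand) is shown with its seed, bases 2 to 8, in capitals.

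mmu-miR-128-3p: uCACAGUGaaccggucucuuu

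Matches to this seed were searched in each gene's longest 3′UTR annotation as CACTGTG (7mer-m8) or ACTGTGA (7mer-A1). *Prdm16*, with a 3′UTR of 4785 nucleotides, held 2 matches, and *Ucp1*, *Cidea*, *Elovl3*, *Plin1*, *Adipoq*, *Cidec* and *Lipe* held 0 in 3′UTRs of 262 to 1203 nucleotides. Among 13337 tested genes with a 3′UTR, 31.0% held at least 1. The pair in *Prdm16* is shown as the transcript reads, on the minus strand of GRCm38, with the match in capitals. The 7mer-m8 match lies at chr4:154317369-154317375 and the 7mer-A1 match at chr4:154317194-154317200.

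*Prdm16*, 7mer-m8: tgagctgttCACTGTGccgttcgag

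*Prdm16*, 7mer-A1: ctgagcgatACTGTGAcaagacatt

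A match describes the sequence and does not show that miR-128 acts on the gene, and the level of *Prdm16* in the 2 conditions is given below. The *Ucp1* promoter (RefSeq, GRCm38.p6, chr8:83290098-83290397, plus strand) is shown from 250 bases before the start site to 50 bases after it. Capitals mark TGACG, the core of the cAMP response element, at position -147 from the start site, and AGGTCA, the core bound by many nuclear receptors, at position -14.

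*Ucp1* promoter: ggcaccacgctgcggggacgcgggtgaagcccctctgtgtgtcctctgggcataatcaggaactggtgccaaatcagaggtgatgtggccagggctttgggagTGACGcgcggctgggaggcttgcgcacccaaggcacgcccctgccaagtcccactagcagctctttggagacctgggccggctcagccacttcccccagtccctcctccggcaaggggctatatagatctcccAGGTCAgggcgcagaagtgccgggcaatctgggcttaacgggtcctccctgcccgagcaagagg

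Of 32851 promoters of the same length, searched on both strands, 20.8% held TGACG and 16.3% held AGGTCA, so neither is rare. The letters CCCNNGGG, which early B-cell factors bind, were in 13.7% of promoters and in those of *Plin1* and *Cidec*. The full cAMP response element TGACGTCA (1.79% of promoters), the letters TATAAA (13.6%) and the C/EBP palindrome TTGCGCAA (0.183%) were in no promoter of *Ucp1*, *Plin1*, *Adipoq*, *Cidec*, *Prdm16* or *Lipe*, the genes with an entry in the RefSeq table.

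*Ucp1* (Entrez Gene 22227, chromosome 8 of GRCm38, 83290348 to 83298456) had 56 counts in WH7, 3 in WH8, 253 in WH9 and 189 in WH10. These are 4.52, 0.371, 20.3 and 13.2 CPM. Both miR-128OE libraries were above both Ctrl libraries, and WH8 sat at the detection floor. Scaled for library size with TMM factors (trimmed mean of M values), *Ucp1* averaged 205 ± 64.7 normalized counts (SD, n = 2) in miR-128OE and 27.7 ± 33.2 (SD, n = 2) in Ctrl hearts. The log2 fold change was 2.69 (standard error 0.51), or 6.45-fold. It was 5.54 without WH7, where Ctrl rests on the 3 counts of WH8, and 1.99 without WH8. In bulk RNA, fewer cells of a type and less RNA per cell cannot be told apart.

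Inside Ctrl, the libraries also differed in *Ucp1*, in a ratio that rests on the 3 counts of WH8. WH7 was 12.1-fold above WH8 (95% exact conditional interval 3.93 to 60.3, counting error only). This interval includes the fitted 6.45-fold between the conditions, so which of the 2 is larger cannot be told. WH9 was 1.58-fold above WH10 (1.30 to 1.91). *Ucp1* was the only one of the 7 members with enough counts that moved by 2-fold or more inside a condition. Across the table, 3.19% of 14398 genes were at least 2-fold higher in WH7 than in WH8 and 1.26% were at least 2-fold higher in WH8. In miR-128OE, 1.19% of 14422 genes were at least 2-fold higher in WH9 and 2.09% in WH10, and no member was among them.

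Markers of other cell types moved with *Ucp1* between the Ctrl libraries. Of 8 atrial markers, 6 were at least 2-fold higher in WH7 than in WH8, and their summed levels differed 7.45-fold. *Nppa*, which encodes atrial natriuretic peptide, had 34013 counts in WH7, 1943 in WH8, 5217 in WH9 and 12886 in WH10. Of 7 markers of mesothelium, the sheet that covers the heart, 4 were at least 2-fold higher in WH7, with summed levels of 134 CPM in WH7, 59.9 in WH8, 75.0 in WH9 and 65.5 in WH10. WH8 was thus the lowest library for *Ucp1* and for both marker lists, while WH7 was the highest for both lists and the third for *Ucp1*. Between the conditions the atrial and mesothelial markers had adjusted p-values of 0.0572 to 0.849 (edgeR's quasi-likelihood test, p-values adjusted after Benjamini and Hochberg over 14266 genes). The part of atrial or mesothelial tissue in the *Ucp1* levels was not tested.

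Markers of skeletal muscle, thymus and lung were low beside those of CMs. In every library each sum was still above that of *Adipoq*, *Plin1* and *Cidec* (3.80 to 7.03 CPM), which covers fewer genes. The summed level of 10 skeletal muscle markers was 18.8 CPM in WH7, 9.88 in WH8, 12.4 in WH9 and 9.89 in WH10, with *Myh8* at 92, 14, 82 and 64 counts and *Myh2* at 0, 0, 1 and 0. For 12 thymocyte markers it ranged from 6.75 to 10.4 CPM. Of these, *Cd4* was highest on average, at 23, 14, 18 and 18 counts, and *Dntt* had 0 counts everywhere. For 10 lung epithelium markers the summed level ranged from 7.56 to 14.1 CPM. *Ager* was highest on average, at 86, 69, 61 and 104 counts, and the surfactant gene *Sftpd* had 0 counts everywhere. *Myh2*, *Dntt* and *Sftpd* were named after their values were seen. Stromal cell markers ranged from 3095 CPM in WH8 to 4641 CPM in WH7, and large vessel smooth muscle markers from 1258 CPM in WH8 to 1887 CPM in WH10. Of 6 erythroid markers, 4 globin genes were listed at 0 in all libraries. Whether their reads were counted is not given in the sources used here, so these zeros are not read as absent expression. *Alas2*, the erythroid enzyme of heme synthesis, had 487, 215, 831 and 899 counts. *Myh8* and *Alas2* were, like *Ucp1*, lowest in WH8.

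Some of these markers passed the test between the conditions (adjusted p, edgeR), and those other than *Acta2* and *Alas2* were named after their values were seen. Higher in miR-128OE, like *Ucp1*, were *Alas2* by 1.05 on the log2 scale (adjusted p = 0.00106), the smooth muscle actin gene *Acta2* by 0.94 (0.00029) and, of 8 stromal markers, *Pi16* by 1.25 (0.000504), *Lum* by 0.63 (0.0286) and *Cd34* by 0.37 (0.0132). Lower were the smooth muscle myosin gene *Myh11*, the skeletal muscle gene *Tnni2*, the thymocyte gene *Ptcra* and the lung gene *Nkx2-1*, by 0.64 to 2.09 (adjusted p of 0.0072 to 0.0416). Of the 8 CM markers, 4 were higher and 1 was lower at an adjusted p under 0.05 (edgeR), beside 16.5% and 15.0% of all tested genes. The part of these tissues in the *Ucp1* levels was not tested.

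**Figure D1:**
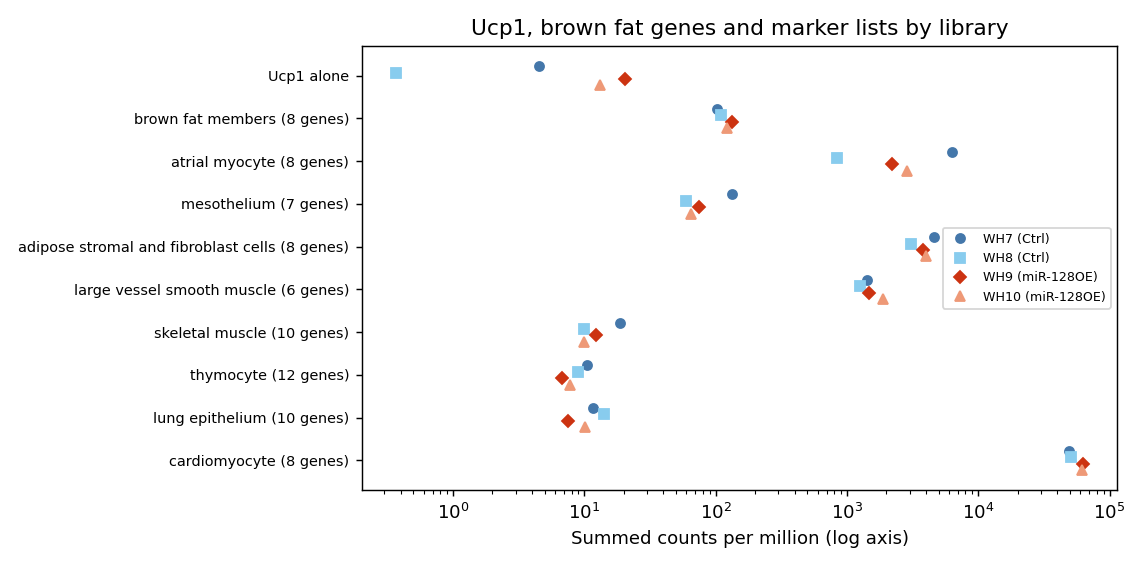
Levels of *Ucp1* alone and summed levels of the 8 brown fat genes and of 8 marker lists, in CPM on a log axis, with 1 symbol per library. *Ucp1* and the atrial and mesothelial lists were lowest in WH8. The sum of the brown fat genes, between 103 and 134 CPM, came mostly from *Cidea*, *Prdm16* and *Lipe*, so it shows little of *Ucp1*.

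*Cidea* (Entrez Gene 12683, chromosome 18, 67343564 to 67367794) did not follow *Ucp1* between the Ctrl libraries. It had 336 counts in WH7, 250 in WH8, 536 in WH9 and 485 in WH10, which are 27.1, 30.9, 43.1 and 33.8 CPM. In WH8, where *Ucp1* was at the floor, *Cidea* was no lower than in WH7. On normalized counts both miR-128OE libraries were above both Ctrl libraries, at 469 ± 86.8 (SD, n = 2) against 330 ± 32.6 (SD, n = 2). The log2 fold change was 0.51 (standard error 0.14), with 0.32 without WH9 and 0.71 without WH10. WH7 was 0.870 of WH8 (interval 0.736 to 1.03), and WH9 was 1.30-fold above WH10 (1.15 to 1.47).

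*Elovl3* (Entrez Gene 12686, chromosome 19, 46131897 to 46135694) had 1 count in each of the 4 libraries. It was below the floor everywhere and was not tested, and a difference was not detectable at this depth. It is the only member of the 8 that did not pass the low count filter, and its exons overlap those of *Pitx3* on the opposite strand by 10 bases.

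*Prdm16* (Entrez Gene 70673, chromosome 4, 154316122 to 154637360) had 297 counts in WH7, 215 in WH8, 284 in WH9 and 349 in WH10, which are 24.0, 26.6, 22.8 and 24.3 CPM. The conditions overlapped, and no library stood apart. The normalized counts averaged 287 ± 8.73 (SD, n = 2) in miR-128OE and 288 ± 22.8 (SD, n = 2) in Ctrl hearts, a log2 fold change of 0.0049 (standard error 0.12), and the value was -0.094 when total counts were used for scaling. The gene with the seed matches shown above was at nearly equal levels in both conditions, and whether miR-128 acts on it was not tested. Part of its exons, 109 bases, overlap *B230104I21Rik* on the opposite strand.

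Among the droplet genes, *Plin1*, which coats the large droplets of adipocytes and holds back lipolysis, was low in all libraries. *Plin1* (Entrez Gene 103968, chromosome 7, 79721164 to 79732904) had 18 counts in WH7, 11 in WH8, 25 in WH9 and 40 in WH10, or 1.45, 1.36, 2.01 and 2.79 CPM. Both miR-128OE libraries were higher, WH7 and WH8 were nearly equal, and the levels of the conditions did not overlap. All 4 counting intervals did overlap, for example WH10 (1.99 to 3.79 CPM) and WH7 (0.861 to 2.30 CPM). The normalized counts averaged 29.2 ± 6.29 (SD, n = 2) in miR-128OE and 16.0 ± 0.646 (SD, n = 2) in Ctrl hearts, a log2 fold change of 0.87 (standard error 0.37).

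*Cidec*, which helps droplets fuse and grow, was as low and did not separate the conditions. *Cidec* (Entrez Gene 14311, chromosome 6, 113424634 to 113435760) had 13 counts in WH7, 10 in WH8, 16 in WH9 and 16 in WH10, or 1.05, 1.24, 1.29 and 1.11 CPM. All 4 counting intervals overlapped, and the log2 fold change was 0.18 (standard error 0.43). At these counts the within-condition intervals were wide, at 0.341 to 2.14 for WH7 over WH8 and 0.551 to 2.51 for WH9 over WH10.

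*Lipe*, the lipase that cuts diacylglycerol in adipocytes and also in muscle, had the most counts of the members in all libraries except WH9, where *Cidea* had more. *Lipe* (Entrez Gene 16890, chromosome 7, 25379527 to 25398486) had 534 counts in WH7, 390 in WH8, 520 in WH9 and 626 in WH10, or 43.1, 48.2, 41.8 and 43.6 CPM. The conditions overlapped, with averages of 521 ± 8.25 normalized counts (SD, n = 2) in miR-128OE and 520 ± 44.5 (SD, n = 2) in Ctrl hearts. The log2 fold change was 0.008 (standard error 0.10), and it was -0.091 with total counts. An exon of *4732471J01Rik* on the opposite strand overlaps *Lipe* by 453 bases, and whether counting used strand is not given in the sources used here.

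*Adipoq*, a hormone gene largely restricted to adipocytes, was low as well. *Adipoq* (Entrez Gene 11450, chromosome 16, 23146536 to 23157968) had 16 counts in WH7, 13 in WH8, 34 in WH9 and 45 in WH10, or 1.29, 1.61, 2.73 and 3.13 CPM. The levels of the conditions did not overlap. The counting interval of WH9 still overlapped both Ctrl intervals, and that of WH10 overlapped that of WH8. WH8, the lowest library for *Ucp1*, was not the lowest in CPM for *Adipoq*. The ratio of WH7 to WH8 had an interval of 0.359 to 1.80, which includes no difference. The normalized counts averaged 35.8 ± 2.96 (SD, n = 2) in miR-128OE and 16.5 ± 2.65 (SD, n = 2) in Ctrl hearts, a log2 fold change of 1.14 (standard error 0.35).

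**Figure D2:**
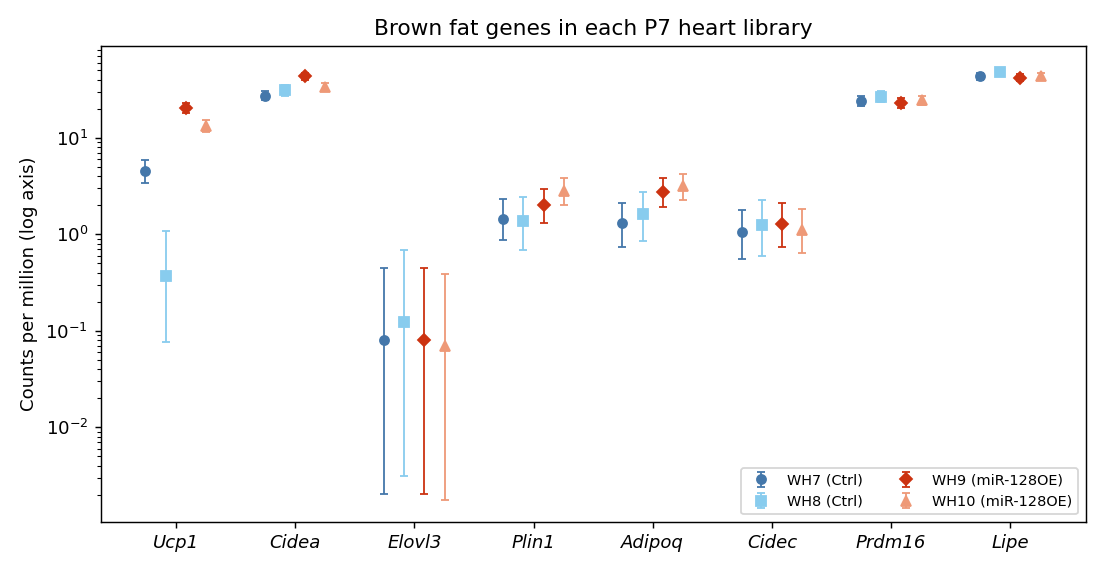
Level of each brown fat gene in each library in CPM on a log axis, with exact 95% Poisson intervals for counting error. *Ucp1* spans 0.371 to 20.3 CPM, *Cidea*, *Prdm16* and *Lipe* stay between 22.8 and 48.2 CPM, *Plin1*, *Adipoq* and *Cidec* between 1.05 and 3.13 CPM, and *Elovl3* has 1 count per library.

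Of the 7 members that passed the filter, 4 (*Ucp1*, *Cidea*, *Plin1* and *Adipoq*), on normalized counts, had both miR-128OE libraries above both Ctrl libraries and none had both below, against 33.7% and 34.4% of all tested genes. Since the members were chosen from these values, nothing is read from these counts. The median log2 fold change of the 7 was 0.51, with a range of 0.0049 to 2.69, beside a median of -0.014 over all tested genes.

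**Figure D3:**
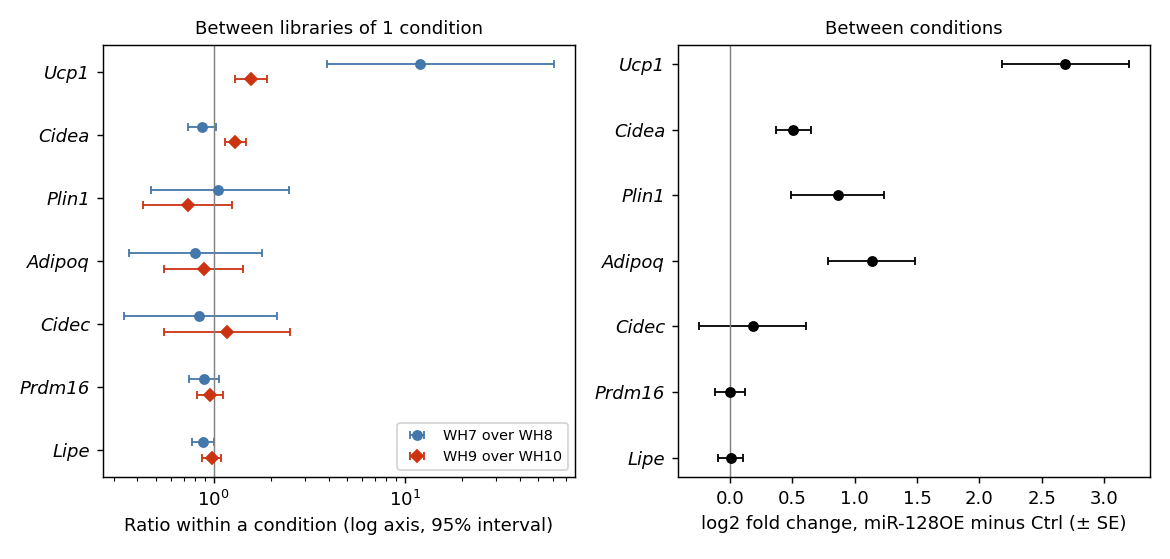
Left, ratios of WH7 to WH8 and of WH9 to WH10 for 7 brown fat genes on a log axis, with exact 95% intervals for counting error. Right, log2 fold change of miR-128OE over Ctrl with its standard error. Only the ratio of *Ucp1*, at 12.1-fold between WH7 and WH8, reached 2-fold inside a condition, although the intervals of *Plin1*, *Adipoq* and *Cidec* include a 2-fold difference.

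The levels of the genes were then set side by side as CPM per kilobase of exon, a level that allows a rough comparison of genes of different length. All annotated exons of a gene were merged. Where the merged length exceeds that of the transcript in use, the value is too low. Averaged over the libraries, *Cidea* was highest at 30.2 CPM per kilobase, followed by *Lipe* at 7.50, *Ucp1* at 5.87, *Prdm16* at 2.62, *Adipoq* at 1.59, *Cidec* at 0.631, *Plin1* at 0.409 and *Elovl3* at 0.0448. The range of *Ucp1* over libraries, 0.227 to 12.4, covered the ranges of *Lipe*, *Prdm16*, *Adipoq*, *Cidec* and *Plin1*. The ranges of *Cidec* (0.566 to 0.693) and *Plin1* (0.292 to 0.599) also overlapped. *Cidea* against *Lipe*, *Lipe* against *Prdm16*, *Prdm16* against *Adipoq* and *Adipoq* against *Cidec* did not overlap.

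Relatives of the members with known expression in muscle or in many cells were mostly higher on this scale. *Plin5*, the perilipin of oxidative muscle, was at 19.8 CPM per kilobase, and *Plin2*, *Plin3* and *Plin4* were at 14.2, 20.9 and 17.5, against 0.409 for *Plin1*. *Ucp2* and *Ucp3* were at 54.6 and 17.3, and *Ucp1* was below both in every library except WH9, where it was above *Ucp3* (12.4 against 11.5). The fatty acid binding protein *Fabp4*, used as an adipocyte marker and also made by capillary endothelium, was at 348 CPM per kilobase and had a log2 fold change of -0.018. *Pnpla2*, the lipase that acts before *Lipe*, was at 40.3, and the *Cidea* relative *Cideb* was at 0.149.

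To see whether the members kept their proportions from library to library, ratios of CPM per kilobase between pairs of members were taken inside each library. The ratio of *Ucp1* to *Adipoq* was 2.95 in WH7 (95% interval 1.67 to 5.52), 0.195 in WH8 (0.0356 to 0.709), 6.28 in WH9 (4.38 to 9.27) and 3.55 in WH10 (2.55 to 5.02). The interval of WH8 lay below the other three. The ratio of *Ucp1* to *Cidea* was 0.114 in WH7, 0.00818 in WH8, 0.322 in WH9 and 0.266 in WH10, again with the interval of WH8 below the rest, and with that of WH7 (0.0840 to 0.151) below those of WH9 and WH10. Ratios that left out *Ucp1* were steadier. *Adipoq* over *Plin1* was 2.99, 3.98, 4.58 and 3.79, and *Cidea* over *Cidec* was 43.0, 41.6, 55.8 and 50.5, in the order WH7, WH8, WH9 and WH10, with overlapping intervals throughout. *Cidea* over *Adipoq* was 26.0, 23.8, 19.5 and 13.4, and these intervals also overlapped.

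**Figure D4:**
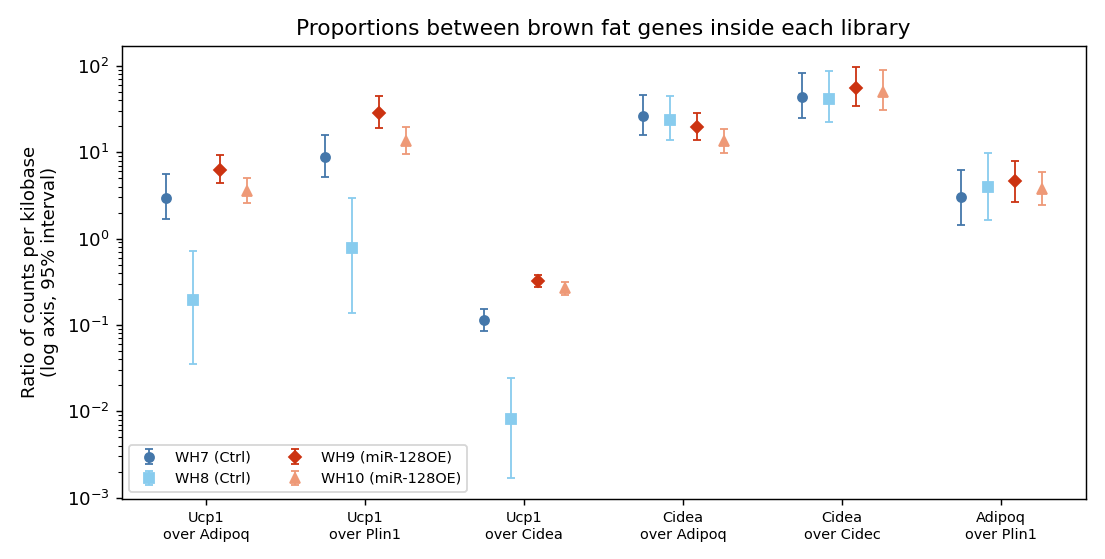
Ratio of CPM per kilobase between pairs of brown fat genes inside each library on a log axis, with exact 95% intervals for counting error. The 3 ratios with *Ucp1* are lowest in WH8, whereas *Cidea* over *Cidec* and *Adipoq* over *Plin1* overlap in all libraries.

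Summed over *Adipoq*, *Plin1* and *Cidec*, the level was 3.80 CPM in WH7 (95% Poisson interval 2.79 to 5.05), 4.20 in WH8 (2.91 to 5.87), 6.03 in WH9 (4.74 to 7.56) and 7.03 in WH10 (5.73 to 8.55). The Ctrl libraries were alike on this sum and below both miR-128OE libraries, although the interval of WH9 overlapped both Ctrl intervals and that of WH10 overlapped that of WH8. These 3 genes were grouped with their counts already known. With *Ucp1* and *Elovl3* added, the sum was 8.40 CPM in WH7 (6.86 to 10.17), 4.69 in WH8 (3.32 to 6.44), 26.45 in WH9 and 20.26 in WH10. The Ctrl libraries were not alike on that sum. Over the 6 members other than *Prdm16* and *Lipe*, the sums were 35.5, 35.6, 69.5 and 54.0 CPM, mostly from *Cidea*. Over all 8 they were 103, 110, 134 and 122 CPM, mostly from *Cidea*, *Prdm16* and *Lipe*.

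Of other genes that mark brown adipocytes, 1 passed the test. Of 30 listed genes, 18 passed the filter and 1 was called, lower in miR-128OE, beside 16.5% of all genes higher and 15.0% lower, and their median log2 fold change was 0.034. The lower gene was *Ebf2*, a regulator of brown fat precursors and other mesenchymal cells (235, 157, 160 and 189 counts, log2 fold change -0.46, adjusted p = 0.0294, edgeR), whose adjusted p was 0.138 with DESeq2, 0.170 without WH9 and 0.151 without WH10. *Dio2*, which activates thyroid hormone in brown fat, had 111 counts in WH7, 48 in WH8, 136 in WH9 and 128 in WH10, and a log2 difference of 0.48 (adjusted p = 0.142, edgeR). None of the 18 genes of this list with enough counts reached 2-fold between WH7 and WH8, and *Dio2* was 1.5-fold higher in WH7 (1.06 to 2.15). The adrenergic receptor gene *Adrb3* had 4, 5, 4 and 6 counts, and *Zic1*, a marker of the classical brown lineage, had 11, 5, 5 and 2. In the order WH7, WH8, WH9 and WH10, *Otop1* had 1, 1, 6 and 4 counts, *Ffar4* 1, 0, 5 and 3, and *Gpr3* 0, 2, 4 and 8. The low counts of this list thus went in different directions. *Adrb3*, *Zic1*, *Otop1*, *Ffar4* and *Gpr3* did not pass the filter and were named after their values were seen.

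Genes of general adipocyte function, of which many also work in muscle, were called in both directions. Of 40 listed, 32 passed the filter, 7 were higher and 1 was lower, beside 16.5% and 15.0% of all genes, and the median log2 fold change was 0.13. *Slc2a4*, the insulin-responsive glucose transporter of fat and muscle, was higher by 0.91 on the log2 scale (adjusted p = 0.000107, edgeR), and *Dgat2*, which completes triglyceride synthesis, by 0.77 (adjusted p = 0.000625). *Acaca*, which makes malonyl-CoA, fell by 0.48 on the log2 scale (adjusted p = 0.0179, edgeR, and 0.0777 with DESeq2). *Pck1*, used for glycerol synthesis in adipocytes, had 13 counts in WH7, 3 in WH8, 41 in WH9 and 36 in WH10, an order like that of *Ucp1*, and a log2 difference of 2.0 (adjusted p = 0.0108, edgeR). Without WH9 the adjusted p was 0.104. WH7 was 2.80-fold above WH8 for *Pck1*, with an interval of 0.770 to 15.3 that includes no difference. The count of called genes of this list was 4 in place of 8 without WH9, 13 without WH7 and 12 without WH8.

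The other 8 genes of the list did not pass the filter on low counts. The 5 of these given here, and *Mrap*, were named after their values were seen. *Lep*, the leptin gene, had 0, 0, 1 and 6 counts in WH7, WH8, WH9 and WH10, and *Cfd*, which encodes adipsin, had 4, 3, 2 and 6. *Retn*, which encodes resistin, had 11, 3, 9 and 6, and *Lgals12*, a droplet galectin, had 5, 4, 6 and 10. *Adig*, which encodes adipogenin, had 1, 0, 7 and 2. In the same list *Mrap*, which encodes an accessory protein of the melanocortin receptor and is found in fat and adrenal, had 109, 62, 136 and 184 counts and was higher in miR-128OE by 0.62 (adjusted p = 0.0268, edgeR).

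Of 14 genes selective for white or beige fat, 7 passed the filter, and 2 were called, both higher, beside 16.5% of all genes (*Slc36a2* and *Agt*, log2 fold changes of 0.57 and 0.95), with a median of 0.30. Without WH9 their adjusted p-values were 0.121 and 0.106, and with DESeq2 that of *Slc36a2* was 0.0540.

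The thermogenic genes that brown fat shares with heart muscle, here called oxidation genes although some have other roles, mostly passed the test. All 20 listed genes passed the filter, 14 were higher and 3 were lower in miR-128OE, beside 16.5% and 15.0% of all genes, and the median log2 fold change was 0.62. *Ckmt2*, the mitochondrial creatine kinase of striated muscle, was higher by 1.86 on the log2 scale (adjusted p = 8.86e-06, edgeR), the potassium channel gene *Kcnk3* 1.11 and the respiratory chain gene *Cox7a1* 0.91. *Ucp3*, *Cpt1b* and *Ppargc1b* fell by 0.77, 0.71 and 0.40, with adjusted p-values of 0.115 and 0.093 for *Ucp3* and *Cpt1b* by DESeq2. All of these lower calls were lost without WH9 and without WH10, where the adjusted p of *Ppargc1b* was 0.130 and 0.0586. These genes are expressed in CMs, although not all were abundant here, with *Cpt1b* at 107, 102, 71 and 89 counts. A level from brown fat could not be read apart from the level of the heart muscle in these libraries. Without WH9 the count of called genes was 9 in place of 17.

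Of 20 genes of lipid droplets and lipolysis, 19 passed the filter, 8 were higher and 1 was lower, beside 16.5% and 15.0% of all genes, and the median log2 fold change was 0.17. The higher genes included *Fitm1* (0.64), which is needed for droplet formation in muscle, *Plin5* (0.63) and *Dgat2*, whereas *Plin3* fell by 0.27 (adjusted p = 0.0285, edgeR, 0.119 with DESeq2). It was 4 called genes in place of 9 without WH9.

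Of 28 partners and regulators of the members, 24 passed the filter, 7 were higher and 5 were lower, beside 16.5% and 15.0% of all genes, and the median log2 fold change was 0.23. Among partners of *Adipoq*, the receptor gene *Adipor1* was higher by 0.38 on the log2 scale (adjusted p = 0.00616, edgeR). Among relatives of *Ucp1*, *Ucp2* rose by 0.92 (adjusted p = 0.000129) while *Ucp3* fell. Around *Prdm16*, the coactivator gene *Med1* rose by 0.52, and the corepressor gene *Ctbp2*, the methyltransferase gene *Ehmt1* and the related *Mecom* fell by 0.56, 0.42 and 0.43 (adjusted p of 0.000877 to 0.0111, edgeR). The count of called genes was 3 in place of 12 without WH9 and 7 without WH10.

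**Figure D5:**
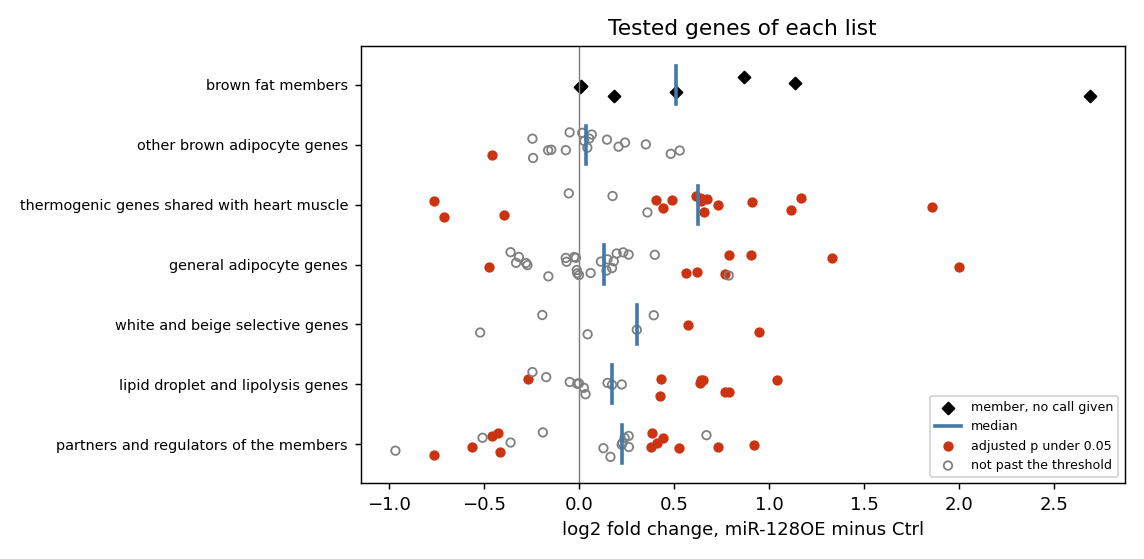
Log2 fold change of miR-128OE over Ctrl for the tested genes of the brown fat members (black) and 6 lists, with the median of each as a bar. Filled red points passed an adjusted p of 0.05 in edgeR's quasi-likelihood test, which holds for 17 of the 20 oxidation genes shared with heart muscle and 1 of the 18 other brown adipocyte genes.

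The genes with the pattern most like each member were found from the root mean square difference of log2 CPM, centered on each gene, over the 4 libraries and 13931 genes, which is a description of 4 points per gene. *Ucp1* spanned 5.34 on the log2 scale, and its nearest genes were not close. They were *Slc17a7* (difference 0.638; 81, 11, 231 and 189 counts), *Gm3716* (0.663; 7, 1, 61 and 67) and *Uts2b* (0.755; 38, 0, 41 and 42). No other brown fat gene was among them, but with 3 genes named of 13931 this does not show whether others followed *Ucp1*. The other 6 members spanned 0.161 to 1.26, and their nearest genes lay within 0.043. Those nearest to *Cidea* were *Ccdc85c*, *Mrpl39* and *Kbtbd12*, those nearest to *Plin1* were *Hebp1*, *Ptprv* and *Pdlim7*, and those nearest to *Adipoq* were *Fam131a*, *Scx* and *Mid1*. *Cidec* lay nearest to *Ctnnbip1*, *Uxt* and *Mex3d*, *Prdm16* to *Rmc1*, *Stat6* and *Thap12*, and *Lipe* to *Ube4b*, *Stat6* and *Nop2*.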

How the data were processed

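RNA-seq of P7 hearts gave 2 Ctrl and 2 miR-128OE libraries. Per the paper's methods, the authors filtered low-quality reads, used TopHat2 with mm10 (the assembly of GRCm38) and tallied reads over known genes, and they deposited raw counts without normalization. Gene models, strand and the rule for shared reads are not given in the sources used here. Of 24454 Entrez identifiers, 24374 were matched to RefSeq.

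The members and lists were chosen with earlier results of these data known. Counts were tested with edgeR 4.0.16 (R 4.3.3; filterByExpr, minimum 10 counts and total 15, TMM, quasi-likelihood test, Benjamini-Hochberg over 14266 genes, threshold 0.05), and DESeq2 1.42.0 was an alternative. The test was run on simulated counts with the same relative spread for every gene and no tissue or sex differences. That check does not show how the test performs on the present libraries. CPM used total counts. Poisson and conditional binomial intervals (scipy 1.17.1, Python 3.11.15) and the floor of 3 counts cover counting error only, since PCR reads without molecular identifiers are not independent molecules. Within-condition ratios used genes with at least 10 counts in the larger library. Lengths and 3′UTRs came from GENCODE M21. Named were the members, the 3 genes with the smallest p per direction and the 3 with the largest WH7 to WH8 ratio of each list, the 3 nearest profiles, and the top gene of each marker list. Not every gene under this rule is described. Alternatives were other size factors, tests and filters, and each library left out.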

Additional observations from a re-analysis of the deposited data

How the results depend on the processing

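With each library left out, called genes ranged from 1564 (without WH9) to 5038 (without WH7), against 4490, with 2285 without WH10. DESeq2 gave 3114 and no filter 5323. By list, they ranged from 0 to 4 for other brown adipocyte genes, 9 to 18 for oxidation genes shared with heart muscle, 4 to 13 for general adipocyte genes, 0 to 2 for white and beige genes, 4 to 11 for droplet genes and 3 to 14 for partners and regulators. The lone library of a condition was assumed to vary like the other condition. Other brown adipocyte genes had 2 calls with total counts and 0 with DESeq2, general adipocyte genes 13 without the filter, and white and beige genes 1 with DESeq2. Genes past the fold between WH7 and WH8 were 1650 at 1.5-fold and 122 at 4-fold (642 at 2-fold), and between WH9 and WH10 1168 and 117 (473 at 2-fold). With libraries left out, the log2 fold changes of *Nppa* (-1.95 to 1.55), *Col1a1* (-0.41 to 0.25) and *Gpam* (-0.56 to 0.53) changed sign. With total counts the share of higher genes was 35.4% in place of 52.3%, with a median of -0.11. The causes were not tested. Over the settings, *Ucp1* stayed between 1.99 and 5.54, *Cidea* between 0.32 and 0.71, *Plin1* between 0.64 and 1.07 and *Adipoq* between 0.96 and 1.29. *Prdm16* and *Lipe* changed sign around 0. Depth limits *Elovl3*, *Cidec*, *Plin1* and *Adipoq*, each at 45 counts or fewer per library. No paired analysis was possible because the labels pair no Ctrl library with a miR-128OE library.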
